A study of Mus musculus with 4 samples.

Results

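The 9 mouse genes described here serve citrate export and the supply and use of acetyl-CoA. Cs makes citrate, Slc25a1 carries it out of the mitochondrial matrix, and Acly and Acss2 make acetyl-CoA outside the mitochondrion from citrate and from acetate. Idh1, Idh2 and Idh3a encode isocitrate dehydrogenases or a subunit of one, and Acaca and Fasn encode enzymes that use cytosolic acetyl-CoA to build fatty acids. Every ATAC-seq peak that overlapped the span from 5 kb upstream of a gene to 5 kb past its end (GENCODE M21 annotation, genome build mm10) was taken as a member, which gave 33 of the 128055 peaks. Of these, 13 lay within 1 kb of an annotated protein-coding start site of the gene itself and are called promoter peaks. The other 20 comprised 15 peaks in the gene body, 4 downstream of the gene and 1 over the start of Klhl11, a neighbour of Acly. Acaca, the longest gene, held 12 of the 33 peaks, so the peaks are not independent of each other. The peak caller assigned all 33 to both oxygen levels.

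ATAC-seq measures how open chromatin is by cutting accessible DNA with a transposase and sequencing the fragments. It was applied to mesenchymal stem cells (MSCs) sorted as CD45-/Ter-119-/Sca-1+/CD140a+ cells from the hind limb bones of wild-type male C57BL/6N mice 3 to 5 months old. All cells were grown at 2% O2 before they were sorted, and the study's methods do not state the oxygen level during sorting. They were then either kept at 2% O2 (hypoxia, 2 libraries) or moved to 21% O2 (normoxia, 2 libraries), so the normoxia-cultured cells had also spent their first days in culture in hypoxia. The labels call the cells bone-marrow MSCs, whereas the study's methods describe cells freed from crushed bone.

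The deposited signal of a peak was read as its number of reads per 10000000 reads of the library, not divided by peak width. Reads and library totals were recovered by taking the smallest value above 0 of a library as 1 read. Totals inferred in this way ran from 26680936 to 29965523. The nuclear peaks together held 49.2 and 53.2% of the inferred total in hypoxia against 31.0 and 35.2% in normoxia. Mitochondrial peaks held 7.77 and 9.13% against 1.497 and 2.34%. These shares take each read as counted once, which was not tested. On the deposited scale the median log2 fold change of all peaks, normoxia over hypoxia, was -0.44. Scaling with relative log expression (RLE) factors set that median to -0.0039, and fold changes below are given after RLE scaling unless stated otherwise. Promoter peaks of the 9 genes held 25 to 1027 recovered reads per library and the other peaks 0 to 376. Of the cell type markers examined, all 6 MSC markers had a promoter peak (Pdgfra, Ly6a, Eng, Cd44, Itgb1 and Cxcl12), as did 2 of 3 endothelial markers (Pecam1 and Kdr). Ptprc, which encodes the CD45 used to gate blood cells out, had none. Promoter signal per kb ran from 6.71 to 58.6 in hypoxia and from 8.03 to 28.7 in normoxia for the MSC markers. The endothelial markers lay at 16.1 to 20.1 in hypoxia and 15.7 to 15.9 in normoxia. The part of other cells in the values of the 9 genes was not tested.

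Citrate synthase, the product of Cs, joins acetyl-CoA to oxaloacetate in the mitochondrial matrix. The citrate carrier encoded by Slc25a1 moves citrate across the inner membrane, and ATP citrate lyase (Acly) splits it in the cytosol and nucleus into oxaloacetate and acetyl-CoA, the donor for histone acetylation and the building block of fatty acids. Acss2 makes the same acetyl-CoA from acetate. The isocitrate dehydrogenases Idh1 (cytosol), Idh2 and Idh3a (mitochondrion) oxidise isocitrate to alpha-ketoglutarate, and Idh1 and Idh2 can also run in reverse towards citrate, a route known from cells in low oxygen. Acetyl-CoA carboxylase (Acaca) and fatty acid synthase (Fasn) then use cytosolic acetyl-CoA for lipid synthesis.

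The promoter sequences of 4 start sites are given because their values are set side by side below: the citrate carrier, the lyase, the promoter with the lowest fold change among the 13 (the upstream start of Idh1), and the lipid synthase. Each is the 250 bases before the RefSeq start site (GRCm38.p6, the assembly also called mm10), read 5′ to 3′ in the direction of transcription. All 4 genes lie on the minus strand. Capitals mark the hypoxia response element cores ACGTG and GCGTG on either strand, that is CACGT and CACGC when read on the reverse strand.
Slc25a1, chr16:17928220-17928469: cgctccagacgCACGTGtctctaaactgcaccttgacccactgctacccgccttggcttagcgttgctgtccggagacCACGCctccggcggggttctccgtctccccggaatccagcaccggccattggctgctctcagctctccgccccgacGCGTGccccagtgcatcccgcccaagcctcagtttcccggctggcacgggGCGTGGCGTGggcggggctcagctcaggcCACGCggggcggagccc
Acly, chr11:100528001-100528250: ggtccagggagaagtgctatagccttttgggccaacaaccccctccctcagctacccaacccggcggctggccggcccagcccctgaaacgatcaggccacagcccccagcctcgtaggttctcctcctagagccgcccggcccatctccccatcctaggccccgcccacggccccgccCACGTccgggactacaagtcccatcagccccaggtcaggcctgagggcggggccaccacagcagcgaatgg
Idh1 (upstream start), chr1:65186480-65186729: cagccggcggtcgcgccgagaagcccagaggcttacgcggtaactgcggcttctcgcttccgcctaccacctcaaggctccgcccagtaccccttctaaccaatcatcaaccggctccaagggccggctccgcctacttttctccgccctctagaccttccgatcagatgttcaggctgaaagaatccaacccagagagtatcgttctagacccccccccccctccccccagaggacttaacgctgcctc
Fasn, chr11:120824548-120824797: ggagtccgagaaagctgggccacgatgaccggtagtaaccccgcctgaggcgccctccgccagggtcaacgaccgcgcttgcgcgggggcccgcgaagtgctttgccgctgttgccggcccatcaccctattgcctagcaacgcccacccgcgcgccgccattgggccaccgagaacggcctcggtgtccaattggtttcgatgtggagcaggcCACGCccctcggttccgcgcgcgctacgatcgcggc

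The Slc25a1 promoter was dense in these cores. RefSeq gave 9 windows of 300 bases (250 before and 50 after the start) for 8 of the 9 genes (all but Idh3a). ACGTG was found 3 times and GCGTG 5 times in the Slc25a1 window on both strands together, 8 cores in all. At least as many were found in 48 of 32841 RefSeq promoter windows (0.146%), that of Slc25a1 included. A CACGTG, the E-box, holds an ACGTG on each strand, and the 1 in Slc25a1 accounts for 2 of its 3 matches. At least 1 core of either kind was present in 7 of the 9 member windows against 43.8% of all windows, with GCGTG in 7 (32.4% of all) and ACGTG in 2 (19.6% of all). The windows of Cs and of the downstream start of Acaca held none. CCAAT, the NF-Y box, and GGGCGG, the Sp box, were each found in 7 windows, against 37.4% and 35.7% of all windows. CACGTG was found in 1 (7.15% of all), and neither GCATGC, part of the NRF1 site (7.94% of all), nor TGACGTCA, the CRE (1.79% of all), in any. Beside these windows, Slc25a1, with 8 cores, had a log2 fold change of -0.36, and the upstream Idh1 window, with 1 core lying 43 bases past the start, had -0.63. The windows with no core had -0.27 at Cs and -0.25 at the downstream start of Acaca, and with 9 windows no relation was tested. The shares of all windows were not matched to the member windows in base composition. Guanine and cytosine made up 39.7% of the window at the downstream start of Acaca and 58.7 to 69.3% of the other member windows. Whether the member windows differ in these matches from windows of equal composition was not tested. The matches are letters in a window and were not measured as bound sites.

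The first question was whether promoter accessibility of these genes differed between oxygen levels. At all 13 promoter peaks the 2 normoxia values were both under the 2 hypoxia values, on the deposited scale and after RLE scaling. The same held at 86.1% of all 17661 promoter peaks as deposited and at 60.3% after scaling. A log2 fold change below 0 was found at 13 of 13, against 78.3% of all promoter peaks. The values ran from -0.63 to -0.25 with a median of -0.37, where the median of all promoter peaks was -0.27. Accessibility fell at 4 of the 13, at Acly, both Idh1 promoters and Idh3a, and rose at 0 (limma, false discovery rate (FDR) under 0.01 over all peaks), while 10 of 13 were lower at an unadjusted p under 0.05 (44.1% of all promoter peaks) and 0 were higher (3.88%). edgeR on the recovered reads also called 4 lower and 0 higher, whereas limma without trend and robust moderation of the variances called 0 in either direction. None of the 13 was called when the libraries were scaled to equal totals or by cyclic loess, or when either hypoxia library was left out, as given below. Among all promoter peaks 16.7% were called lower and 0.442% higher, and among all peaks 4.57% and 1.77%. In bulk samples such as these, fewer cells with an open promoter and a less open promoter in each cell cannot be told apart.

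**Figure D1:**
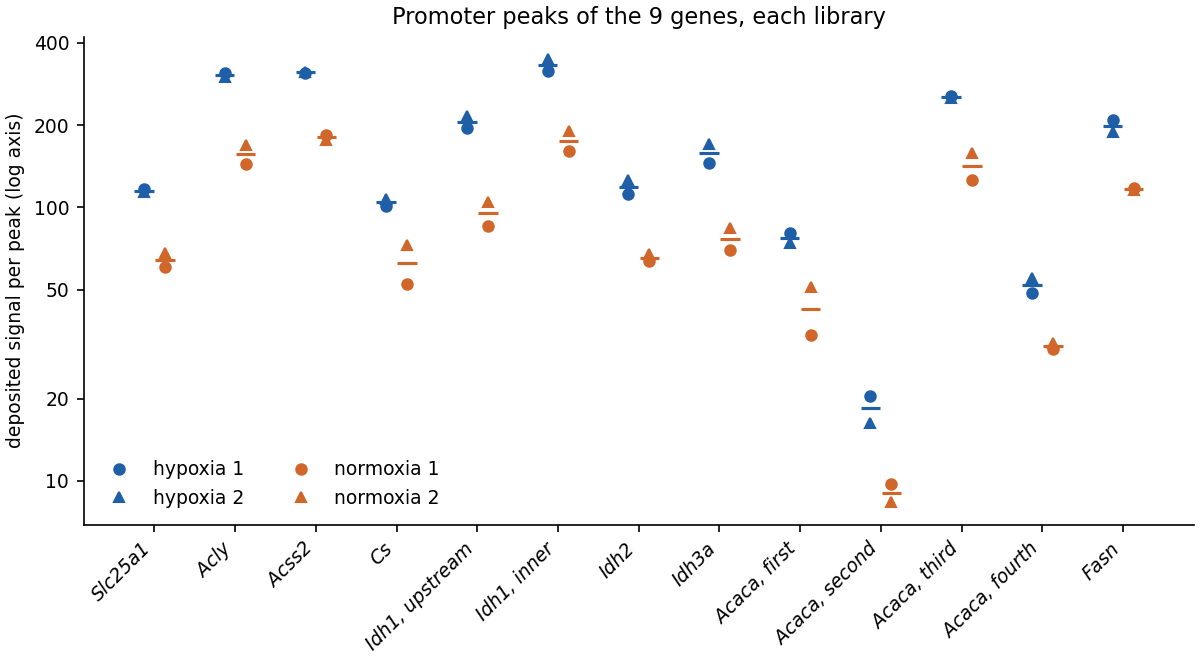
Deposited signal per peak (read as reads per 10000000 library reads, log axis) of the 13 promoter peaks of the 9 genes. Circles and triangles are libraries 1 and 2, blue for hypoxia and orange for normoxia, and bars are group means of 2 libraries. Every orange point lies below both blue points of its peak. Idh1 and Acaca have several promoter peaks. Those of Idh1 are named upstream and inner, and those of Acaca are numbered in the direction of transcription.

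The citrate carrier and the lyase stand at the exit of citrate from the mitochondrion. At Slc25a1 the promoter peak (chr16:17927201-17929700, over the start site) had a signal of 116.4 and 113.9 in hypoxia against 60.3 and 68.4 in normoxia. The groups did not overlap, with a mean of 115.2 ± 1.79 against 64.4 ± 5.71 (SD, n = 2 each), but the scaled log2 fold change of -0.36 (SE 0.13) did not pass the threshold (limma FDR 0.0637). The Acly promoter peak (chr11:100523801-100529100, over the start and running into the gene) had 311.4 and 299.5 in hypoxia against 144.3 and 169.2 in normoxia. Its normoxia mean was 0.513 times its hypoxia mean, the scaled log2 fold change was -0.49 (SE 0.11), and it was called lower (limma FDR 0.00232). The call was lost without hypoxia replicate 1 (limma FDR 0.21) or replicate 2 (0.168), when 1 hypoxia library is left and 0 of all peaks are called. It stayed without normoxia replicate 1 (0.00145) or replicate 2 (1.9e-05).

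Acss2, the acetate route, had a broad promoter peak (chr2:155512301-155519000) that also covered the start of its neighbour Ggt7, so the signal cannot be given to either gene alone. Its values were 310.3 and 313.8 in hypoxia against 184.8 and 176.9 in normoxia, with a log2 fold change of -0.31 (limma FDR 0.0442, SE 0.11). It was called without normoxia replicate 1 (limma FDR 0.00303) and reached an FDR of 0.146 without normoxia replicate 2. The Cs promoter peak (chr10:128335501-128338600) had 101.6 and 107.1 in hypoxia against 52.5 and 72.8 in normoxia. The normoxia libraries were further apart here than the hypoxia libraries, and the log2 fold change of -0.27 (limma FDR 0.193, SE 0.14) was -0.098 when normoxia replicate 1 was left out and -0.44 when normoxia replicate 2 was.

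Of the isocitrate dehydrogenases, the cytosolic Idh1 had a pair of promoter peaks and both were called lower. The upstream one (chr1:65185401-65187800), at the outermost start and shared with the start of the neighbouring Pikfyve, had 194.6 and 216.6 in hypoxia against 85.8 and 105.1 in normoxia. Its log2 fold change of -0.63 (limma FDR 0.000542, SE 0.12) was the lowest of the 13. The inner one (chr1:65176401-65180400), over start sites inside the gene, was stronger, with 315.6 and 349.2 in hypoxia against 160.4 and 190.9 in normoxia, and a log2 fold change of -0.44 (limma FDR 0.00361, SE 0.10). The mitochondrial Idh3a, the catalytic subunit of the NAD-dependent enzyme, had a promoter peak (chr9:54585601-54587700) at 145.8 and 170.3 in hypoxia against 69.7 and 83.8 in normoxia. It was called lower with a log2 fold change of -0.56 (limma FDR 0.00272, SE 0.13). The mitochondrial NADP-dependent Idh2 (chr7:80113701-80116100) had 111.8 and 125.8 in hypoxia against 63.7 and 67.4 in normoxia. Its log2 fold change was -0.37 (limma FDR 0.0503, SE 0.13). Without either hypoxia replicate the 3 calls were lost, with limma FDRs of 0.175 and 0.17 for the upstream Idh1 peak, 0.189 and 0.193 for the inner one and 0.175 and 0.184 for Idh3a without replicate 1 and 2. They stayed when either normoxia replicate was left out, with a highest limma FDR of 0.00728, at Idh3a.

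Acaca is read from several alternative promoters, and 4 peaks lay over its annotated starts. The third in the direction of transcription (chr11:84177901-84181600) was the strongest, with 255.1 and 252.3 in hypoxia, 126.3 and 157.5 in normoxia and a log2 fold change of -0.37 (limma FDR 0.0240, SE 0.11). It was -0.46 and called without normoxia replicate 2 (limma FDR 0.000881), and -0.27 and not called without normoxia replicate 1 (limma FDR 0.0907). The first (chr11:84128401-84130500), shared with the start of the neighbouring Tada2a, had 80.3 and 74.1 in hypoxia against 34.1 and 51.1 in normoxia. Its log2 fold change was -0.40 (limma FDR 0.0880, SE 0.16), and it was -0.62 and called without normoxia replicate 2 (limma FDR 0.00993) but -0.17 without normoxia replicate 1 (limma FDR 0.584). The second (chr11:84172901-84173500) and the fourth (chr11:84192401-84195500) were weaker, with log2 fold changes of -0.50 (SE 0.26) and -0.25 (SE 0.17) and limma FDRs of 0.203 and 0.336. Fasn had a single promoter peak (chr11:120822501-120826100) with 208.8 and 189.0 in hypoxia against 117.3 and 116.1 in normoxia, and a log2 fold change of -0.29 (limma FDR 0.101, SE 0.12). None of the 5 promoter peaks of the lipid synthesis enzymes was called with all 4 libraries, at unadjusted limma p-values from 0.0024 to 0.146, nor by edgeR.

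Levels were compared between genes per kb of peak, taking for each gene the promoter peak with the highest signal. For Idh1 this was the inner peak, with a signal per kb of 83.1 ± 5.92 in hypoxia, while the narrower upstream Idh1 peak had 85.7 per kb. The inner Idh1 peak was followed by Idh3a with 75.3 ± 8.26, Acaca with 68.6 ± 0.55, Acly with 57.6 ± 1.58 and Fasn with 55.2 ± 3.88 (SD, n = 2 each). Idh2 (49.5 ± 4.12), Acss2 (46.6 ± 0.37) and Slc25a1 (46.1 ± 0.72) came next, and Cs was last with 33.6 ± 1.26. Neighbours in this order whose libraries overlapped were Idh1 and Idh3a, Acly and Fasn, Idh2 and Acss2, and Acss2 and Slc25a1. In normoxia Idh1 was again first (43.9 ± 5.39) and Cs last (20.2 ± 4.62). There Acaca stood before Idh3a and Fasn before Acly. The libraries of Acaca and Idh3a overlapped in normoxia (34.1 to 42.6 against 33.2 to 39.9), whereas those of Fasn (32.3 and 32.6) lay above those of Acly (27.2 and 31.9).

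Fold change went with the strength of a promoter peak in this table, so each of the 13 peaks was set beside the 500 promoter peaks closest to it in mean signal, 5165 different peaks in all. These had a median log2 fold change of -0.31 against -0.37 for the member promoters, and 86.7% of them were below 0. Of these comparison peaks 24.2% were called lower, 0.29% higher and 57.2% were lower at an unadjusted p under 0.05. Of the member peaks 9 of 13 lay below the median of their own comparison peaks and 10 of 13 lay between the quartiles. The 3 outside were below the lower quartile. They were the upstream Idh1 promoter, at -0.63 beside a median of -0.35 (quartiles -0.49 and -0.23), Idh3a, at -0.56 beside -0.36 (-0.49 and -0.21), and the weak second Acaca promoter, at -0.50 beside 0.10 (-0.19 and 0.36). Slc25a1 was at -0.36 beside -0.32 and Acly at -0.49 beside -0.41, while Acss2, at -0.31 beside -0.42, and Fasn, at -0.29 beside -0.38, were on the higher side. The median of these differences over the 13 peaks was -0.064, lay between -0.067 and -0.040 when any 1 library was left out, and was not tested.

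**Figure D2:**
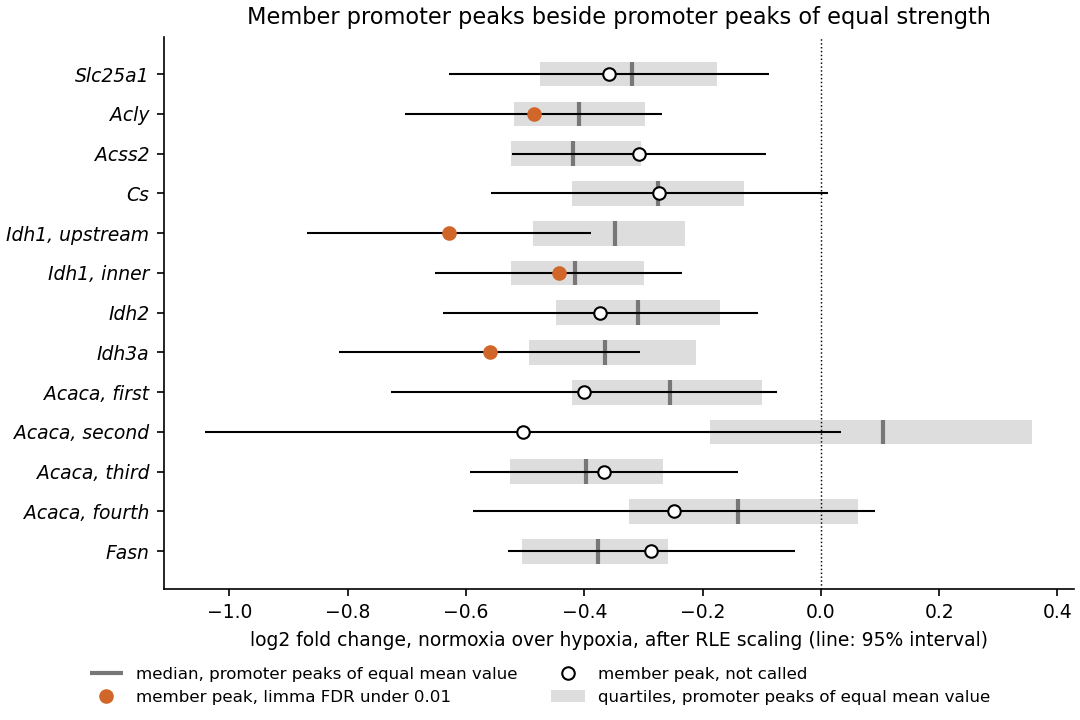
Log2 fold change (normoxia over hypoxia, after RLE scaling) of the 13 promoter peaks, with its 95% interval from limma as a line. Filled points passed an FDR under 0.01, and the grey bar and tick are the quartiles and median of the 500 promoter peaks closest in mean signal. In 10 of 13 rows the point lies inside the grey bar, and the upstream Idh1, Idh3a and second Acaca points lie to its left.

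The peaks away from the start sites gave fold changes on both sides of 0. Their log2 fold changes ran from -1.06 to 0.68 with a median of 0.0077, against 0.046 for all 110394 peaks that are no promoter peaks, and 10 of 20 were below 0 and 10 above. By limma 0 of 20 were called lower and 0 higher (2.64% and 1.98% of all such peaks), by edgeR also 0 and 0, and at an unadjusted limma p under 0.05 there were 2 lower and 4 higher (12.5% and 13.9% of all such peaks). After scaling, both normoxia libraries lay above both hypoxia libraries at 7 of 20 (30.1% of all such peaks) and below at 2 of 20 (24.6%).

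The 4 on the higher side were 1 intronic peak each of Acss2, Acaca and Idh2 and the peak downstream of Idh1 described below. Their log2 fold changes were 0.68 (limma FDR 0.0587), 0.58 (limma FDR 0.0411), 0.59 (limma FDR 0.137) and 0.38 (limma FDR 0.122). The 2 on the lower side lay at Slc25a1 and Acaca. The peak downstream of Slc25a1, which overlapped the annotated gene AA914427 (chr16:17920401-17924100), had 133.1 and 125.5 in hypoxia against 70.8 and 72.8 in normoxia, a log2 fold change of -0.37 (limma FDR 0.0543, SE 0.13), beside -0.36 at the promoter of the gene. The other was a weak intronic peak far inside Acaca (chr11:84389001-84389700), singled out after its values were seen, at 11.3 and 12.6 in hypoxia against 2.62 and 5.01 in normoxia. Its log2 fold change was -1.06 (limma FDR 0.0297, SE 0.34), and it was -1.39 and called without normoxia replicate 2 (limma FDR 0.00898) but -0.74 without normoxia replicate 1 (limma FDR 0.21).

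The strongest other peak of each remaining gene was not called in either direction. In an intron of Cs (chr10:128343301-128345900) the signal was 60.2 and 68.3 in hypoxia against 53.2 and 57.1 in normoxia, and after scaling the log2 fold change was 0.26 (limma FDR 0.248, SE 0.15). Downstream of Idh1 (chr1:65154401-65156900) it was 38.6 and 51.3 in hypoxia against 41.6 and 42.0 in normoxia, with a log2 fold change of 0.38 (limma FDR 0.122, SE 0.17). At both genes the promoter and this peak thus had fold changes of opposite sign with RLE scaling, and the sign of the second was negative on the deposited scale (-0.21 at Cs and -0.088 at Idh1). The intronic Acaca peak (chr11:84197401-84198800) had 83.5 and 92.8 in hypoxia against 49.5 and 69.4 in normoxia, with a log2 fold change of -0.11 (limma FDR 0.671, SE 0.15).

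For the remaining genes the fold changes were small against their errors. The peak over the start of Klhl11, past the end of Acly (chr11:100471601-100473300), had 44.6 and 37.7 in hypoxia against 25.9 and 27.4 in normoxia and a log2 fold change of -0.14 (limma FDR 0.655, SE 0.18). The peak at the end of Acss2, where it overlaps Gss (chr2:155585201-155586000), had 18.1 and 13.6 against 10.5 and 14.3, with a log2 fold change of 0.12 (limma FDR 0.809, SE 0.26). Downstream of Idh2, over Zfp710 (chr7:80091601-80093000), the log2 fold change was -0.19 (limma FDR 0.633, SE 0.23), in an intron of Idh3a (chr9:54601801-54603100) it was 0.069 (limma FDR 0.865, SE 0.21), and downstream of Fasn (chr11:120799701-120804100) it was -0.055 (limma FDR 0.826, SE 0.13).

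**Figure D3:**
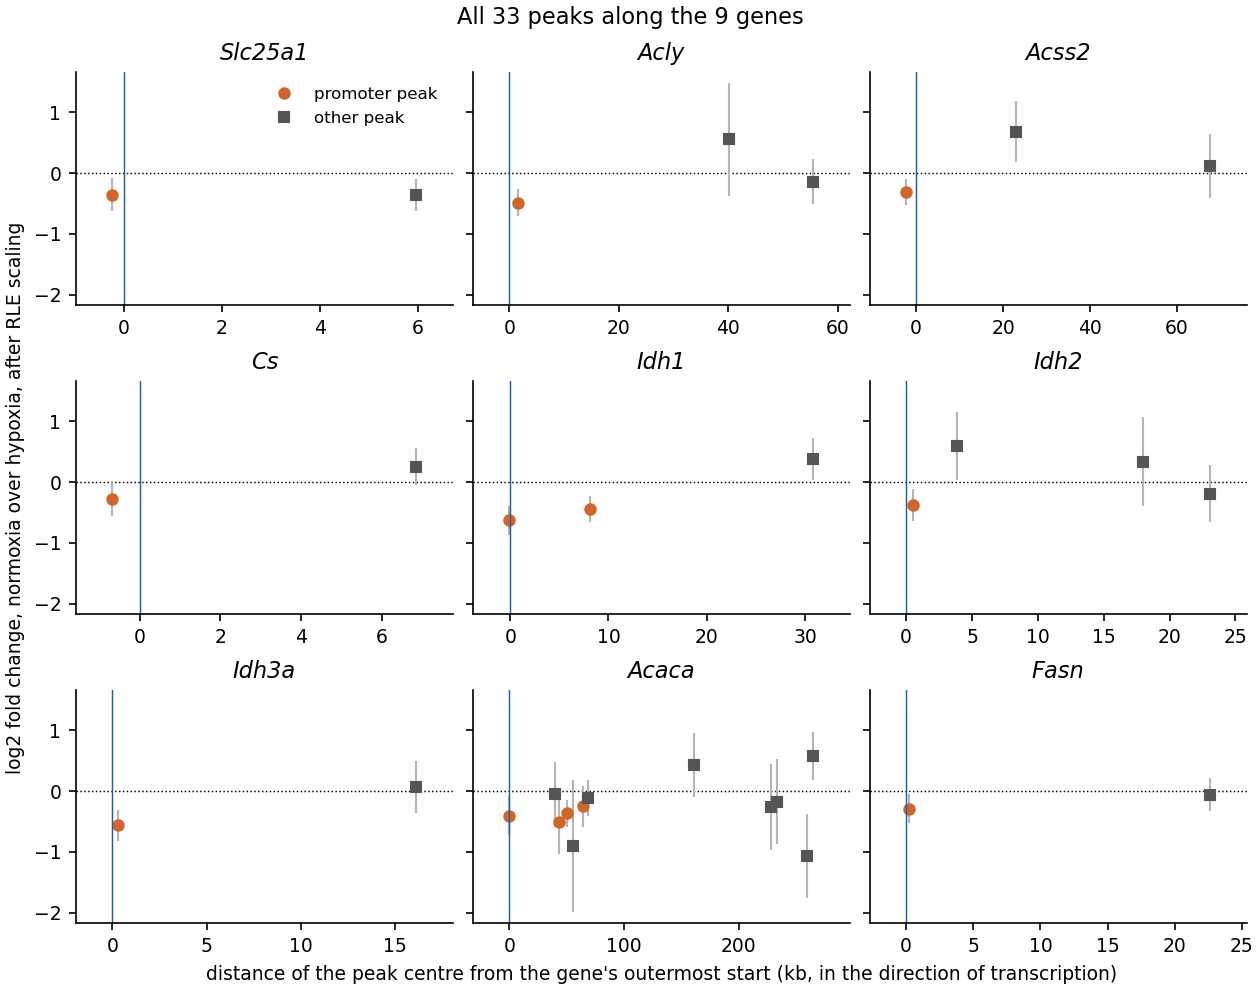
Log2 fold change (normoxia over hypoxia, after RLE scaling) of all 33 peaks against the distance of the peak centre from the outermost start of the gene in kb, 1 panel a gene, with the 95% interval from limma as a vertical line and the start as a blue line. The 13 promoter peaks (orange circles) lie below 0, and the 20 other peaks (grey squares) lie on both sides of it.

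Summed over the peaks of a gene on the deposited scale, both normoxia libraries were below both hypoxia libraries at 9 of 9 loci, as at 95.2% of the loci of 12933 other protein-coding genes with a promoter peak and a further peak. With 2 libraries against 2, an exact permutation test cannot go below p = 0.33, which was the two-sided p at each locus. The ratio of the normoxia to the hypoxia mean ran from 0.523 at Idh3a, 0.534 at Acly, 0.537 at Idh1 and 0.557 at Slc25a1, over 0.611 at Acaca, 0.612 at Acss2, 0.619 at Idh2 and 0.623 at Fasn, to 0.699 at Cs. Over all 33 peaks it was 0.584, and over all nuclear peaks it was 0.647. The sum split unevenly, with a ratio of 0.541 for the promoter peaks and 0.727 for the other peaks of the 9 genes. Promoter peaks held 77.6 and 77.0% of the summed signal in hypoxia and 71.1 and 72.3% in normoxia. This share was lower in both normoxia libraries at 8 of 9 loci, and at 53.9% of the loci of the other genes. At Cs it went from 62.8 and 61.0% to 49.6 and 56.0%, and at Idh2 from 75.1% in each hypoxia library to 64.9 and 68.9%. The exception was Slc25a1, with 46.7 and 47.6% in hypoxia against 46.0 and 48.5% in normoxia.

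The size and, for some peaks, the sign of these differences depended on how the libraries were scaled to each other. As deposited, 13 of 13 member promoter peaks were called lower, with 60.6% of all promoter peaks, at a median log2 fold change of -0.85. When each library was instead scaled to the same total over peaks, the median of all peaks moved to 0.26, and the member promoters had a median of -0.085 with 10 of 13 below 0 and 0 called by limma in either direction (2.29% of all promoter peaks lower, 2.63% higher), although 3 were lower and 0 higher at an unadjusted p under 0.05 (14.4% of all promoter peaks lower). Relative to the median of all peaks the median of the member promoters was -0.37 with RLE, -0.40 as deposited and -0.35 with equal totals, where that of all promoter peaks was -0.27, -0.29 and -0.25. Cyclic loess, which removes a trend of fold change with peak strength, left -0.12 for the members and -0.064 for all promoter peaks, with 11 of 13 members below 0 and 0 called in either direction (2.05% of all promoter peaks lower, 1.26% higher), and again 3 lower and 0 higher at an unadjusted p under 0.05 (18% of all promoter peaks lower). Promoters with a positive value were Cs (0.015), the fourth Acaca promoter (0.035) and Fasn (0.0027) with equal totals, and Acss2 (0.090) and Fasn (0.039) with cyclic loess. The 4 promoter peaks called lower with RLE were below 0 under all 4 scalings. With equal totals 4 other peaks were called higher, in introns of Cs, Acss2 and Acaca and downstream of Idh1.

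**Figure D4:**
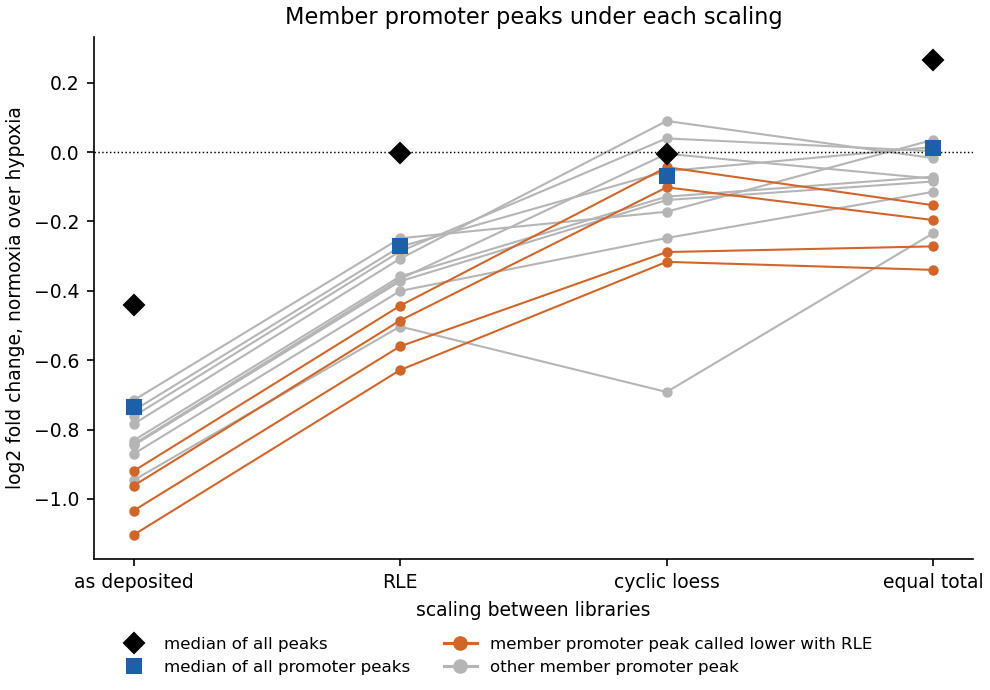
Log2 fold change (normoxia over hypoxia) of the 13 member promoter peaks under 4 ways of scaling the libraries, with lines joining the same peak. Orange marks the 4 peaks called lower with RLE, grey the other 9, black diamonds the median of all peaks and blue squares that of all promoter peaks. The diamonds move from -0.44 as deposited to 0.26 with equal totals, and the member peaks move with them.

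To see whether the rest of the pathway looked the same, 47 further genes of pyruvate entry, the citrate cycle, cytosolic citrate and fatty acid synthesis were examined, each by its strongest promoter peak. All 47 had one. Accessibility fell at 13 of 47 (27.7%) and rose at 0 by limma at an FDR under 0.01, against 22.7% and 0.316% of the promoter peaks closest to them in mean signal. Over all 59 promoter peaks of these genes 14 were called lower and 0 higher (2 higher at an unadjusted p under 0.05, 0 by edgeR). The 2 normoxia values were both under the 2 hypoxia values at 47 of 47 as deposited, and at 86.1% of all promoter peaks. A log2 fold change below 0 was found at 46, against 78.3% of all promoter peaks. The median of the 47 was -0.39, and 31 of 47 lay below the median of promoter peaks of equal mean signal. The median of those differences was -0.088. The 14 calls became 4 with equal totals, 2 with cyclic loess and 49 as deposited.

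Among genes listed under cytosolic citrate and acetyl-CoA, 3 of 9 were called lower. Of the promoter peaks closest in mean signal to all 47 genes, 22.7% were. Aco1, the cytosolic aconitase that turns citrate into isocitrate, had 626.7 and 653.4 in hypoxia against 265.7 and 337.7 in normoxia, with a log2 fold change of -0.61 (limma FDR 4.8e-05, SE 0.092). Mdh1, which reduces the oxaloacetate left by the lyase, had a log2 fold change of -0.55 (limma FDR 0.000383, SE 0.10), and Acss3, an acyl-CoA synthetase of the mitochondrion, one of -0.82 (limma FDR 0.000178, SE 0.14).

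In pyruvate entry and the citrate cycle 5 of 22 were called lower, beside the same 22.7%, with a group median of -0.40. They were Fh1, fumarate hydratase, with 368.7 and 410.4 in hypoxia against 155.5 and 204.2 in normoxia (log2 fold change -0.64, limma FDR 0.000115, SE 0.10), Mpc2, a subunit of the mitochondrial pyruvate carrier (-0.53, limma FDR 0.000753, SE 0.10), and Mpc1, Dlat and Ogdh. Genes of the regulators of pyruvate dehydrogenase were called lower at 4 of 6 and higher at 0, on both sides of the switch, where 27% of the promoter peaks closest in mean signal were called lower and 0.108% higher. Pdk3 and Pdk4, kinases that turn the enzyme off, had log2 fold changes of -0.73 (limma FDR 0.000694, SE 0.14) and -0.62 (limma FDR 0.000512, SE 0.12), and the phosphatases Pdp1 and Pdp2, which turn it on, were called lower as well.

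Of 10 genes of fatty acid synthesis and its regulators 1 was called lower, again beside 22.7%. This was Elovl6, which lengthens palmitate, with 345.0 and 378.7 in hypoxia against 139.4 and 171.9 in normoxia and a log2 fold change of -0.74 (limma FDR 2e-05, SE 0.10). The 1 value above 0 in the whole list, named after its values were seen, was that of Thrsp (0.12, limma FDR 0.673, SE 0.17).

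**Figure D5:**
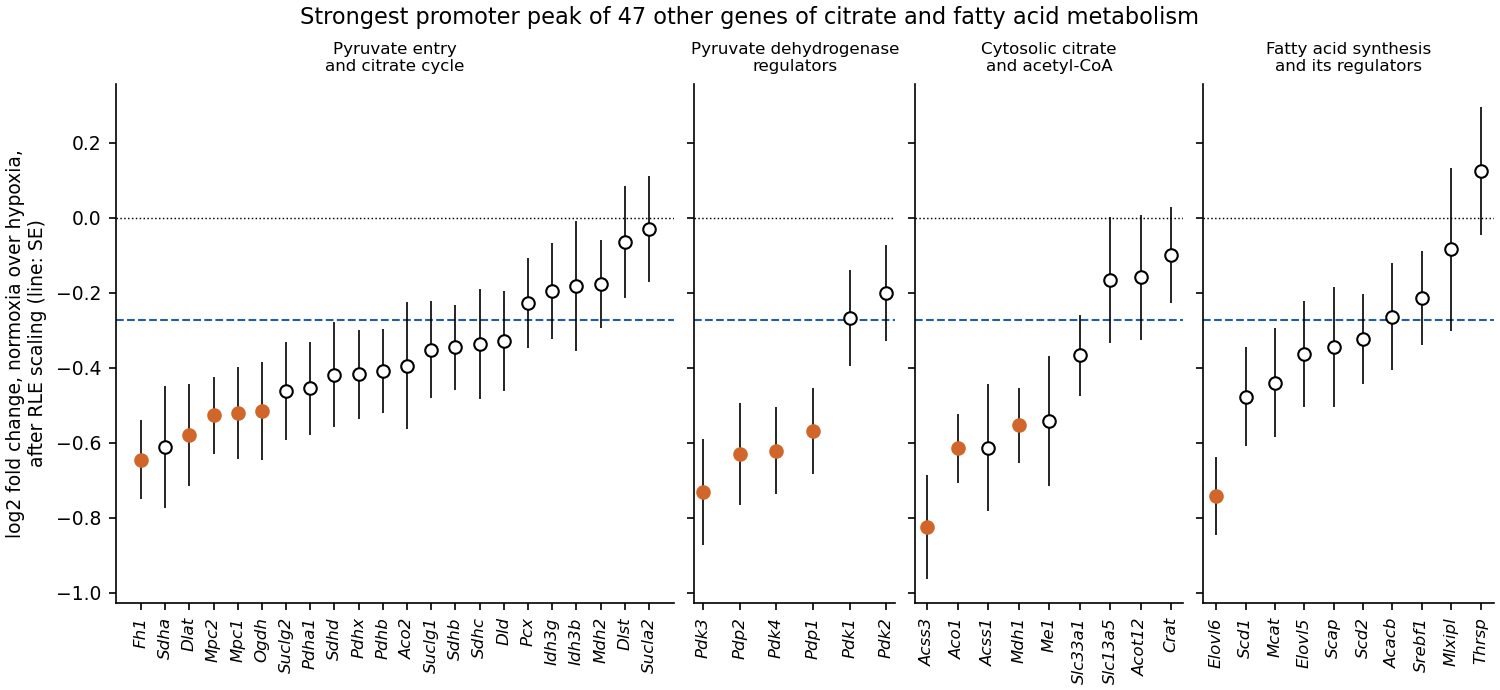
Log2 fold change (normoxia over hypoxia, after RLE scaling) of the strongest promoter peak of 47 further genes in 4 groups, with the SE from limma as a line. Filled points passed an FDR under 0.01 and the dashed blue line is the median of all promoter peaks, at -0.27. The filled points number 5, 4, 3 and 1 from left to right, and Thrsp is the 1 point above 0.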

How the data were processed

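ATAC-seq libraries of hypoxia- and normoxia-cultured MSCs (2 each, grouped by the sample titles) were analysed. The authors aligned reads to mm10 with bowtie2, removed duplicates with Picard and used chromstaR in differential mode to call 1 set of peaks for both groups. The deposited signal, called RPKM by the authors, was a whole number of reads divided by the library total in 100% of values, without division by peak width. Sums over bins may count a read more than once, so no counting interval was given.

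Values were scaled with RLE size factors (1.14, 1.24, 0.815 and 0.892) and tested as log2(value + 1) with limma 3.58.1 in R 4.3.3 (trend, robust, two-sided) over all 128055 peaks, with no filter and an FDR under 0.01. The pseudocount understates fold changes of weak peaks. edgeR 4.0.16 on recovered reads, other scalings, pseudocounts (0.1, 5), a minimum mean of 5, moderation without trend, a replicate block, libraries left out, the 5% FDR and other definitions of spans, promoters and comparison peaks were alternatives. In simulated data with 200 of 128055 peaks changed, limma recovered 99% of 4-fold and 52% of 2-fold changes with 1 false call. Recovery of changes as small as those of the member promoter peaks (log2 fold change -0.63 to -0.25) was not tested. The rate of false calls in the measured libraries was not tested either. The methods name 2 independent experiments. The p-values rest on the spread between these libraries at a peak, moderated by that of all other peaks. Without trend and robust moderation 0 peaks were called lower and 0 higher.

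Named in full were each gene's strongest promoter and strongest other peak, every called member peak and the 8 called list genes of lowest FDR. Features named outside this rule were chosen after their values were seen. Members and lists were chosen with earlier results of these data known. The study divided its sorted cells between the oxygen levels, but the labels do not say which libraries share an isolation. The main fit was unpaired. Deviations of same-numbered libraries correlated at 0.011 over all peaks, which with 2 libraries a group cannot exclude a pairing. The result of 1 blood cell marker is not reported here.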

Additional observations from a re-analysis of the deposited data

How the results depend on the processing

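Counts of calls depended on the scaling, on the moderation of the variances and on the hypoxia libraries. The 4 member peaks called lower became 16 as deposited, 0 with equal totals, 0 with cyclic loess, 0 without trend and robust moderation (where 29311 peaks, 8 of them members and 5 of those lower, had an unadjusted p under 0.05), 7 at an FDR under 0.05, and 0 to 7 with each library left out. Members called higher went from 0 to 4 with equal totals and to 1 at an FDR under 0.05. The 14 list promoter peaks called lower became 49 as deposited, 4 with equal totals, 2 with cyclic loess, 0 without trend and robust moderation, 27 at an FDR under 0.05 and 0 to 20 with each library left out, and 1 was higher at an FDR under 0.05. Over all peaks the 5857 called lower became 30729, 1072, 1681, 0 and 12395 in the same order and 0 to 8138 with a library left out, and the 2266 called higher became 501 as deposited, 8757 with equal totals, 0 without trend and robust moderation, 6890 at an FDR under 0.05 and 0 to 1548 with a library left out. Without hypoxia replicate 1 or hypoxia replicate 2 there were 0 calls over the whole table, with 13787 and 13313 lower and 10332 and 10977 higher at an unadjusted p under 0.05 (5 and 9 member promoters lower, 0 and 0 higher), and the lone library was assumed to vary like the other group.

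The replicate block gave 3913 peaks called higher in place of 2266 and 22 list promoter peaks lower in place of 14, and changed no call of a member (4 lower, 0 higher). The deviations of same-numbered libraries correlated at 0.029 among peaks with a mean of at least 5. With so few libraries this cannot decide whether same-numbered libraries share an isolation.

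The median of the member promoters, -0.37, was -0.85 as deposited, -0.085 with equal totals and -0.13 with cyclic loess. The median of the other member peaks, 0.0077, reversed to -0.45 as deposited and was 0.29 with equal totals, 0.049 with cyclic loess, 0.069 with promoters taken within 2 kb, and 0.027 to 0.096 with each library left out. The difference from promoter peaks of equal mean signal kept its direction throughout. With RLE, deposited and equal-total values it was -0.064 each time. This sameness was built in, because a factor per library shifts members and comparison peaks almost alike.

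Of 286 comparisons for the 22 named member peaks over 13 alternative fits, 22 reversed in sign. As deposited these were the other peaks of Cs (-0.21), Acss2 (-0.33), Idh1 (-0.088) and Idh3a (-0.39). With equal totals they were the promoter peaks of Cs (0.015), Fasn (0.0027) and the fourth Acaca start (0.035) and the other peaks of Acly (0.14), Idh2 (0.085), Acaca (0.18) and Fasn (0.23). With cyclic loess they were the promoter peaks of Acss2 (0.090) and Fasn (0.039) and the other peaks of Acss2 (-0.056), Acaca (0.091) and Fasn (0.18). With a library left out, the other peak of Acly ran from -0.32 to 0.022, of Acss2 from -0.13 to 0.35, of Idh3a from -0.042 to 0.17, of Acaca from -0.28 to 0.076 and of Fasn from -0.13 to 0.027. The causes were not tested beyond the choices named. The other member peaks held a median of 40 recovered reads per library, and a relation of depth to the reversals was not tested.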

Other observations

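In the 50 kb on either side of the 9 spans, an interval chosen after the data were examined, the table held 65 further peaks, 19 of them at promoters. Of these 1 was called lower, at a promoter near Cs, and 1 higher, near Acaca (limma, FDR under 0.01). Among all peaks 4.57% were called lower and 1.77% higher, and among all promoter peaks 16.7% and 0.442%. A difference of the further peaks from these shares was not tested. Median log2 fold changes of the further peaks ran from -0.22 around Cs to 0.19 around Acaca.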
